A study of Mus musculus with 2 samples.

Results

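The immediate early and NF-kB genes described here are 35 members of the 13528 genes counted in liver immune cells of dnTGFβRII and wild type mice. They were chosen by name, with earlier results of these data known, and fall into groups by role. The contrasts of members with all genes below are therefore descriptions only. The NF-kB subunits are Nfkb1, Nfkb2, Rel and Relb. Its inhibitors and cofactors are Nfkbia, Nfkbid, Nfkbiz, Bcl3 and Tnfaip3. Birc3, Icam1, Cd83, Tnfaip8, Tnfrsf9, Gadd45b and Ier3 are known targets of the pathway. The AP-1 and ATF factors are Jun, Junb, Fos, Fosb and Atf3, and the other early transcription factors are Egr1, Nr4a1, Nr4a2, Klf6 and Ier2. Dusp1, Dusp2, Dusp5, Zfp36 and Ppp1r15a act in feedback on signals or mRNA, and Btg1, Btg2, Pnrc1 and Sgk1 form a mixed group of growth restraint and other genes. All 35 members had counts in both genotypes.

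Immediate early genes are transcribed within minutes of a stimulus by factors that are already present in the cell, and most of their mRNAs are short lived. NF-kB dimers are held in the cytoplasm by IkB proteins such as the product of Nfkbia. Once a receptor signal leads to the breakdown of IkB, the dimers enter the nucleus and switch on, among others, their own inhibitors. In lymphocytes these genes answer antigen receptor and cytokine signals, in myeloid cells they answer microbial products and injury, and in all of these cells they also answer the dissociation of tissue into single cells.

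CD45+ immune cells were sorted from the livers of C57BL/6 mice at 10 weeks of age per the labels, and 1 capture library was made from each of 2 pools. One pool, the first here, came from dnTGFβRII mice, called TG, and from IFN-γ ARE-Del-/- mice. Wild type mice, called WT, shared the second with P40-/-IL-2Ra-/- mice. The transgene of TG mice is a human TGF-β type II receptor that blocks the signal, expressed from the mouse CD4 promoter, and these mice model the liver disease primary biliary cholangitis. The number of animals in a pool is not given in the sources used here. Each genotype was 1 library, so genotype and library cannot be told apart, no test between genotypes was possible, and every interval below covers counting error only.

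The annotated TG cells numbered 4647 with 18498477 UMIs (unique molecular identifiers, 1 for each captured mRNA molecule), and the annotated WT cells numbered 7282 with 22216379 UMIs. UMIs of a gene were summed over the cells of a class or cluster and are given as CPM, the count per 1000000 UMIs of those cells, so a lower share of a gene and less of its RNA per cell cannot be separated from a higher total of other RNA. The 9 classes with at least 50 cells of both genotypes were CD8ab T, CD8aa T, CD4 T, NKT, NK, mature B and immature B cells and the classes the authors named Mono and Macro. The T, B, CD4 and CD8 classes carried their own markers, but CD8aa T cells also held the gamma delta T markers at 267 CPM in TG against 1395 in WT, and mature B cells the CD3 transcripts at 172 against 358 CPM. The part of these differences in the values of the 2 classes was not tested. In the class named Mono, neutrophil markers (S100a8, S100a9 and Retnlg) summed to 59382 CPM in TG against 39348 in WT, against 2329 and 1757 CPM for the monocyte markers Ly6c2, Ccr2 and Lyz2, so its name goes against its markers and it is called the Mono class here. In the Macro class the macrophage markers summed to 669.8 CPM in TG against 1185 in WT, below the monocyte markers at 3032 and 7173 CPM. The NK class held CD3 transcripts at 2155 CPM in TG against 660.1 in WT.

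Together the members took their largest share of all UMIs in the Mono class among the 9 classes, 4.92% in TG and 5.88% in WT, and their lowest in CD8ab T cells, 0.867% and 1.21%. Between these lay mature B cells at 1.84% and 1.98% and the Macro class at 1.94% and 2.49%. Basophils, with 45 TG and 16 WT cells, stood above all other named classes at 6.91% and 8.41%.

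The class with the highest level of a member, among classes with at least 50 cells in that genotype, was the same in both genotypes for 27 of 35 members. The classes ranked were not the same, since neutrophils had 50 cells in TG alone and pDC and gamma delta T cells in WT alone. Neither this count nor those by class are given for all genes here. For 18 members in TG and 19 in WT the class with the highest level was the Mono class. There Zfp36, which encodes the mRNA-destabilising protein tristetraprolin, stood at 9213 CPM in TG against 9516 in WT, and Dusp1, a phosphatase of MAP kinases, at 5965 CPM in TG against 6297 in WT. Nfkbia, the gene of the inhibitor IkBα, was at 5804 and 6133 CPM in the Mono class, while in CD8aa T cells it was at 339 and 511 CPM. Ier3, a stress-induced regulator of cell survival, reached 936 and 939.5 CPM in the Mono class and was at most 16.4 CPM in CD8aa T cells. Mature B cells were the class with the highest level of 8 members in TG and 7 in WT. Among them were Rel, the c-Rel subunit needed for B cell proliferation, at 168 CPM in TG against 222 in WT, Nfkbid, a nuclear IkB protein, at 384 CPM in TG against 479.6 in WT, and Dusp2, a nuclear MAP kinase phosphatase, at 1332 CPM in TG against 1758 in WT. Cd83, a surface protein of activated B cells and dendritic cells, was at 134 CPM in TG against 99.1 in WT in mature B cells.

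Other members had their highest level in smaller classes or in lymphocytes of the innate type. Nfkb1, which encodes the p105 precursor of the p50 subunit, was highest in the Macro class, at 314 CPM in TG against 347 in WT. Dusp5, a nuclear phosphatase of ERK, was highest in NKT cells at 232 CPM in TG against 508 in WT. Atf3, a stress-induced repressor, was at 265 CPM in TG against 215 in WT in immature B cells, well above the 28.6 and 27.6 CPM of mature B cells, and at 204 CPM in TG against 303 in WT in the Macro class. In basophils Egr1, a zinc finger factor induced by growth signals, stood at 10618 CPM in TG against 19185 in WT.

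**Figure D1:**
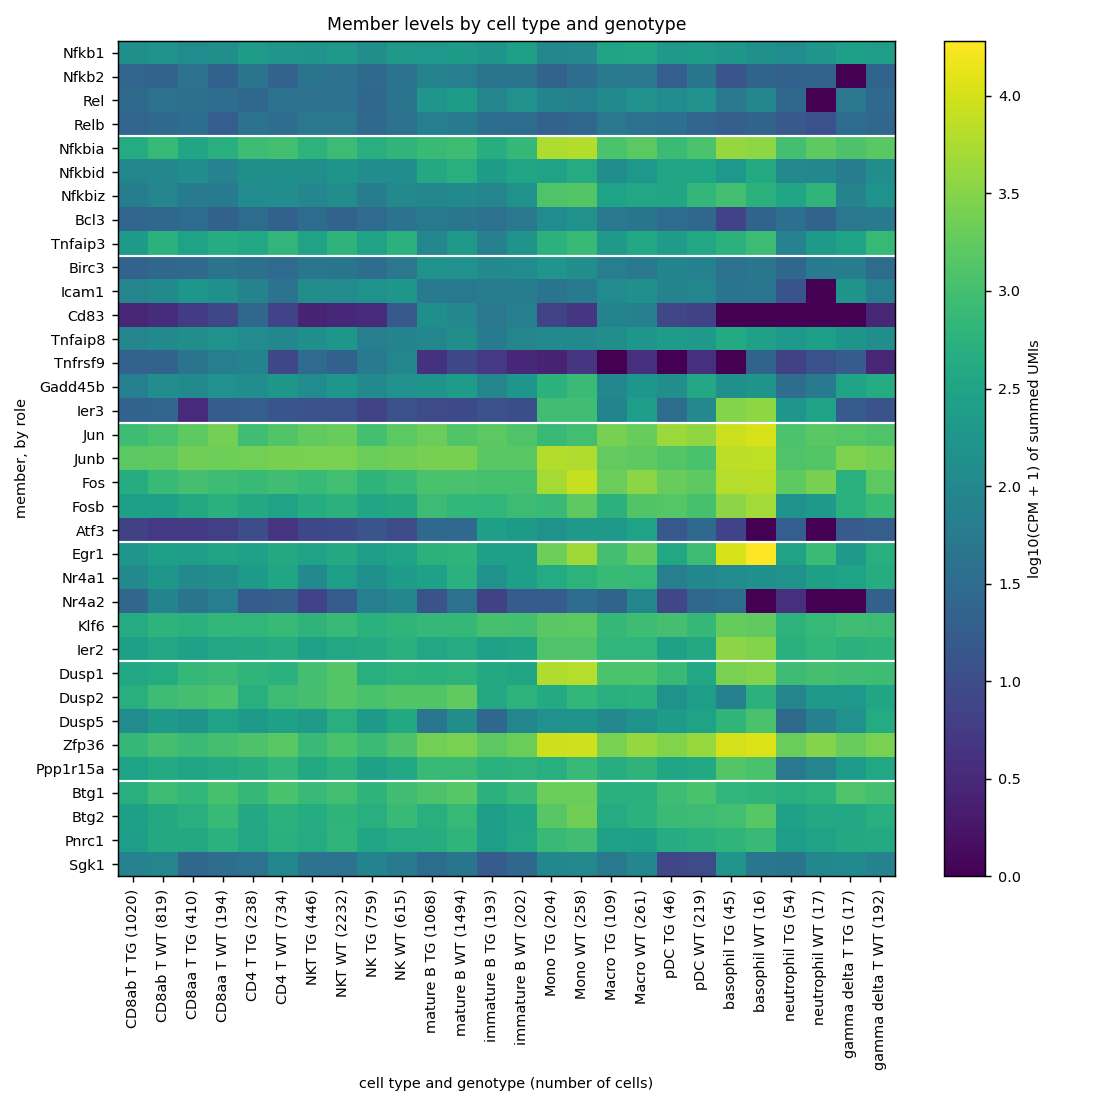
Level of each of the 35 members in each cell class, as log10 of CPM plus 1 (colour scale), for TG and WT cells side by side. The columns of the Mono class and of basophils are brighter than those of the lymphocyte classes for Zfp36, Dusp1, Nfkbia, Fos and Egr1.

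When each cell was thinned to 1000 UMIs to remove differences of depth, most cells of every class held a UMI of Junb, an AP-1 factor, from 70.9% to 99.5% of cells over the 18 class and genotype sets. Without thinning the share of cells with a Junb UMI in CD8ab T cells was 96.8% in TG and 95.2% in WT, against 73.1% and 75.9% thinned. Tnfaip3, which encodes the ubiquitin-editing enzyme A20, was found in 20.5% of thinned TG CD8ab T cells and 41.8% of WT ones (unthinned 50.1% and 70.8%). For Fos, the AP-1 partner of Jun, the shares were 28.9% and 44.8% (unthinned 60.3% and 70.0%). Egr1 was found in 65.2% of TG cells of the Mono class and 87.2% of WT cells (unthinned 81.9% and 93.4%). In immature B cells, a class with low Tnfaip3, the thinned shares for that gene were 9.33% and 16.8%, at median depths of 5965 and 4426 UMIs against 4557 and 2996 in CD8ab T cells. These shares at equal depth follow the mean levels and do not separate fewer positive cells from less RNA per cell, and those of CD8ab T cells pool clusters that the genotypes fill differently. Free RNA of a capture also gives UMIs to cells that do not make a transcript, and its share was not tested.

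The share of the members was lower in TG than in WT in all 13 named classes. In CD8ab T cells the log2 ratio of TG to WT was -0.48 (-0.50 to -0.46), with the 95% interval in parentheses, in the NK class -0.41 (-0.43 to -0.38), in NKT cells -0.36 (-0.38 to -0.34) and in the Macro class -0.36 (-0.39 to -0.33). It was -0.30 (-0.34 to -0.27) in CD4 T cells, -0.29 (-0.33 to -0.26) in CD8aa T cells, -0.26 (-0.28 to -0.23) in the Mono class and -0.21 (-0.24 to -0.18) in immature B cells. Mature B cells differed least, by -0.10 (-0.12 to -0.09). All 9 intervals lay below 0. In 8 of these 9 classes the TG cells also had more UMIs per cell (a median of 4557 against 2996 in CD8ab T cells), and in 8 of 9 a lower median mitochondrial share (5.35% against 7.03% in CD8ab T cells). The part of these in the difference was not tested. With each cell thinned to equal depth the ratio was -0.46 in CD8ab T cells, -0.21 in CD4 T cells and -0.35 in immature B cells. Thinning leaves the expected member share of each cell unchanged and gives all cells equal weight, so these values cannot show the part of depth. With TMM, a scaling that assumes most genes do not differ, the ratio of mature B cells was -0.0509.

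Within single clusters the difference was smaller in some classes. The CD8ab T clusters with at least 50 cells of both genotypes were 4, 7, 12 and 13, where the log2 ratios of the member share were -0.10 (-0.14 to -0.07), -0.47 (-0.52 to -0.43), -0.09 (-0.16 to -0.02) and -0.24 (-0.28 to -0.20). Cluster 7, in which the cell cycle gene Mki67 was at 1127 CPM in TG against 1035 in WT, had the lowest member share, 0.477% and 0.662%, and held 319 of 1020 TG but 132 of 819 WT CD8ab T cells. In it the NK marker Ncr1 was at 169 CPM in TG against 62.9 in WT, and Cd3e at 961 against 633 CPM. Ccr2 was at 95.5 against 240 CPM, while Cd8b1 was close, at 413 against 443 CPM. The part of these differences was not tested. With clusters 4, 7, 12 and 13 set to the same cell mix in both genotypes the log2 ratio of CD8ab T cells was -0.19, against -0.48 for the whole class. These clusters held 890 of 1020 TG and 706 of 819 WT cells, so the change also includes leaving out the other cells. In CD4 T cells cluster 6 differed by -0.03 (-0.09 to 0.02) and cluster 9 by -0.45 (-0.50 to -0.41). The NK class gave -0.22 (-0.26 to -0.18) in cluster 3 and -0.28 (-0.32 to -0.23) in cluster 8. These held 416 of 759 TG and 593 of 615 WT cells of the class. Cluster 11, which had under 50 WT cells, held 343 TG cells, with Cd3e at 1401 CPM and a member share of 0.952%. The values of the whole NK class thus also include cells outside clusters 3 and 8. Cluster 3 carried the T cell gene Cd3e at 1608 CPM in TG against 122 in WT, and cluster 8 at 133 and 67.5 CPM, so the clusters under 1 name do not hold the same cells in both genotypes, and the part of this was not tested. In mature B cells the ratio was -0.11 (-0.12 to -0.09) in cluster 1, NKT cells -0.36 (-0.38 to -0.34) in cluster 0 and the Macro class -0.21 (-0.24 to -0.17) in cluster 15. The sum of the members was lower in TG in all 14 clusters that had 50 cells of both genotypes, and the interval lay below 0 in 13.

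**Figure D2:**
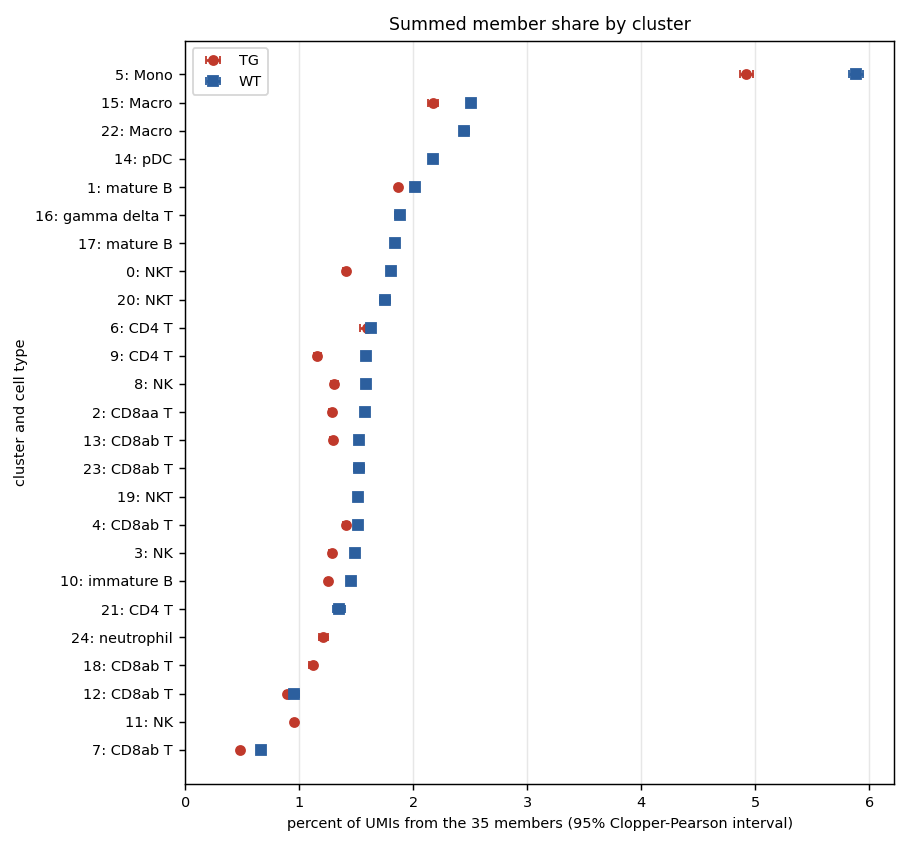
Share of all UMIs that the 35 members took (percent, horizontal axis) in each cluster with at least 50 cells of a genotype (vertical axis), for TG (circles) and WT (squares), with 95% Clopper-Pearson intervals. TG lies below WT in each cluster that has both, and the Mono class is far above the lymphocyte classes, at 4.92% and 5.88%.

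Gene by gene, a member was compared where it had at least 20 UMIs over both genotypes, which held for 305 of 315 pairs of member and class. Of these, 237 lay below 0, and the interval lay below 0 in 174 and above 0 in 25. The interval counts are not given for all genes here, and genes with many UMIs have narrow intervals. They are thus not read as a trait of the members. In each of the 9 classes the median log2 ratio of the members was below 0 and below that of all genes compared. At the level of at least 2-fold, by contrast, few members were called, and most calls were of Tnfaip3, Dusp5, Nr4a1 and Nr4a2. The size and at times the side of a class value depended on which clusters filled the class. In the 6 classes with more than 1 cluster, 141 pairs had a class interval on 1 side of 0 and at least 1 cluster that could be compared. Of these, 114 lay on the same side in every such cluster and 27 on the other side in at least 1, of which 11 were in the NK class, 7 in CD8ab and 7 in CD4 T cells. The cluster's own interval lay on the other side for 6, which were Jun, Ier2, Dusp1 and Dusp2 in CD8ab and Jun and Junb in CD4 T cells. Of 18 values of at least 2-fold in these classes, 14 could be compared in a cluster, and 9 were at least 2-fold in every one and 2 (Dusp5 in the NK class and Tnfaip3 in mature B cells) in none.

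In CD8ab T cells, 0 of 34 members were at least 2-fold higher in TG and 2 (Nr4a2 and Tnfaip3) at least 2-fold lower, 0% and 5.88% of members, against 4.15% and 3.05% of all genes compared. The median log2 ratio of the members was -0.38 and that of all genes 0.03. There 32 of 34 members lay below 0, 94.1% against 46.7% of all genes. In CD8aa T cells, 1 of 32 members (Nfkb2) was at least 2-fold higher in TG and 0 at least 2-fold lower, 3.12% and 0% of members, against 5.37% and 2.46% of all genes compared. There the median log2 ratio of the members was -0.34 and that of all genes 0.02. In CD4 T cells, 2 of 34 members (Cd83 and Tnfrsf9) were at least 2-fold higher in TG and 1 (Sgk1) at least 2-fold lower, 5.88% and 2.94% of members, against 5.41% and 3.28% of all genes compared. Here the median log2 ratio of the members was -0.20 and that of all genes 0.08. In NKT cells, 0 of 34 members were at least 2-fold higher in TG and 4 (Dusp5, Nr4a1, Nr4a2 and Tnfaip3) at least 2-fold lower, 0% and 11.8% of members, against 4% and 2.71% of all genes compared. In these cells the median log2 ratio of the members was -0.34 and that of all genes 0.03. In the NK class, 0 of 35 members were at least 2-fold higher in TG and 2 (Cd83 and Dusp5) at least 2-fold lower, 0% and 5.71% of members, against 3.92% and 4.3% of all genes compared. The NK median log2 ratio of the members was -0.42 and that of all genes -0.04. In that class 33 of 35 members lay below 0, 94.3% against 54.4% of all genes. The share below 0 was 71.9% against 48.0% of all genes in CD8aa T cells, 61.8% against 43.1% in CD4 T cells and 76.5% against 46.6% in NKT cells. Within clusters 4, 7, 12 and 13 of CD8ab T cells the member medians were -0.12, -0.40, -0.12 and -0.47, with -0.07, 0.02, 0.05 and -0.02 for all genes, and within clusters 3 and 8 of the NK class they were -0.16 and -0.36. In these 5 classes most members stood a little lower in TG and few reached 2-fold.

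In mature B cells, 0 of 35 members were at least 2-fold higher in TG and 4 (Dusp5, Nr4a2, Tnfaip3 and Tnfrsf9) at least 2-fold lower, 0% and 11.4% of members, against 1.94% and 2.81% of all genes compared. In these B cells the median log2 ratio of the members was -0.15 and that of all genes -0.04. In immature B cells, 0 of 34 members were at least 2-fold higher in TG and 3 (Dusp5, Nr4a2 and Tnfaip3) at least 2-fold lower, 0% and 8.82% of members, against 2.96% and 3.07% of all genes compared. Their median log2 ratio of the members was -0.40 and that of all genes -0.02. In the Mono class, 0 of 33 members were at least 2-fold higher in TG and 2 (Egr1 and Fosb) at least 2-fold lower, 0% and 6.06% of members, against 5.11% and 5.51% of all genes compared. In that class the median log2 ratio of the members was -0.25 and that of all genes -0.08. In the Macro class, 0 of 34 members were at least 2-fold higher in TG and 3 (Fosb, Ier3 and Nr4a2) at least 2-fold lower, 0% and 8.82% of members, against 4.52% and 5.07% of all genes compared. For these cells the median log2 ratio of the members was -0.35 and that of all genes 0.07. The share of members at least 2-fold lower was above that of all genes in 7 of the 9 classes, but it rests on 2 to 4 members in each of them. With each cell thinned to 1000 UMIs it was above only in CD8ab T cells (8.82% against 6.40%), mature B cells (8.57% against 5.26%) and immature B cells. In the NK class it was then 5.71% against 7.74% of all genes, and in the Mono class 9.09% against 11.1%. The genes compared were chosen by their counts before thinning, and thinned counts are smaller. More of all genes were then called, such as 713 against 272 of 10051 lower in NKT cells. The part of counting noise in these changes was not tested. The share of members below 0 was 65.7% against 55.9% of all genes in mature B cells, 79.4% against 51.7% in immature B cells, 84.8% against 56.4% in the Mono class and 70.6% against 43.8% in the Macro class. Some of these counts changed by over 1.5 times under other settings. With each cell thinned to 1000 UMIs, immature B cells had 2 higher (5.88% against 13.7% of all genes) and 8 lower (23.5% against 12.2% of all genes). NKT cells then had 2 lower (5.88% against 7.09% of all genes) and the Macro class 5 lower (14.7% against 17.3% of all genes). In CD4 T cells cluster 6 alone gave 5 higher (17.2% against 5.69% of all genes) and 0 lower (0% against 8.60% of all genes), and cluster 9 alone 0 higher (0% against 3.70% of all genes) and 4 lower (12.5% against 4.41% of all genes).

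**Figure D3:**
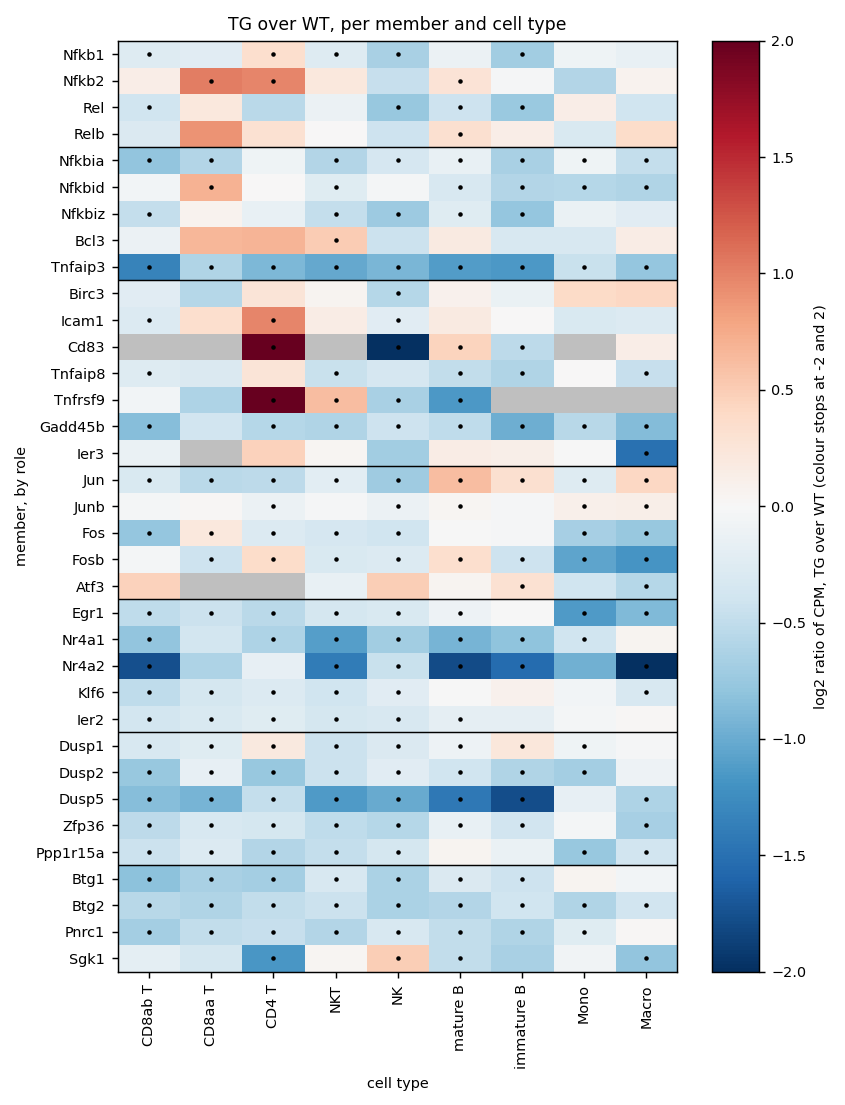
Log2 ratio of TG to WT of each of the 35 members (vertical axis) in each of the 9 classes (horizontal axis), on a colour scale that stops at -2 and 2, with a dot where the interval excludes 0 and grey where fewer than 20 UMIs were counted. Tnfaip3, Dusp5, Nr4a2, Gadd45b and Btg2 are on the low side in all 9 classes, whereas Nfkb2, Relb, Icam1 and Atf3 have values on both sides of 0.

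Among the 31 members compared in every class, 9 lay below 0 in all 9 classes, 29.0% against 4.84% of the 4335 genes compared in every class. They were Btg2, Dusp2, Dusp5, Egr1, Gadd45b, Nfkbia, Nr4a2, Tnfaip3 and Zfp36. No member lay above 0 in all 9, against 5.49% of genes. The classes share the 2 libraries, so these directions are not independent of each other. The shares over all genes, here and over clusters, include genes with few UMIs, which change side more easily by counting error. No share over genes of like level is given here. Over the 14 clusters, 9 of the 26 members compared in every one lay below 0 throughout, 34.6% against 2.44% of 3816 genes, and 0 above it, against 2.04%. The 9 were Nfkbia, Tnfaip3, Gadd45b, Egr1, Dusp5, Zfp36 and Btg2 of the list above, and Nr4a1 and Pnrc1. With TMM scaling in place of totals, Egr1, Nfkbia and Zfp36 each crossed 0 in a class where they hardly differed, Nr4a1 and Pnrc1 joined, and 8 members lay below 0 in all 9 classes, 25.8% against 5.42% of all genes, and 0 above it, against 5.17%. That scaling moved 20 of the 305 pairs across 0, all of them within 0.08 of it, and the totals without ribosomal, mitochondrial and immunoglobulin genes moved 5.

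Of the NF-kB inhibitors and cofactors, Tnfaip3 was lower in TG throughout. It was at 213 CPM in TG against 536 in WT in CD8ab T cells, a log2 ratio of -1.33 (95% interval -1.44 to -1.22), at 297 CPM in TG against 604 in WT in NKT cells, -1.02 (-1.16 to -0.89), and at 94.7 CPM in TG against 206 in WT in mature B cells, -1.12 (-1.32 to -0.93). In immature B cells it was at 72.8 CPM in TG against 161 in WT, -1.15 (-1.54 to -0.77). Between clusters the size differed. In CD8ab T cells Tnfaip3 was at -0.56 (-0.75 to -0.37) in cluster 4, -0.72 (-1.06 to -0.37) in cluster 12, -1.27 (-1.57 to -0.97) in cluster 7 and -1.46 (-1.70 to -1.23) in cluster 13, so it was 2-fold lower in 2 of the 4. In cluster 1 of mature B cells it was -0.88 (-1.10 to -0.67), under 2-fold. The interval lay below 0 in 13 of the 14 clusters. In the other 5 classes Tnfaip3 was lower in TG by less than 2-fold, from -0.91 in the NK class (287 and 539 CPM) to -0.45 in the Mono class (562 and 767 CPM), and all 9 intervals lay below 0.

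Nfkbia also lay below 0 in 9 classes, but came near 0 in some of them. CD8ab T cells had 429.8 CPM in TG against 742 in WT, a log2 ratio of -0.79 (-0.87 to -0.70) and from -0.86 to -0.29 over its 4 clusters, and immature B cells 457 CPM in TG against 718 in WT, -0.65 (-0.81 to -0.49). In the Mono class, where its level was highest, the ratio was -0.08 (-0.15 to -0.01), and in CD4 T cells it was -0.09 (-0.22 to 0.03). Nfkbiz, a nuclear IkB protein, ranged from -0.77 in immature B cells to 0.07 in CD8aa T cells. Bcl3, which binds p50 and p52 dimers in the nucleus, was below 0 in 4 of 9 classes, with 0.50 (0.03 to 0.96) in NKT cells the one interval above 0. In cluster 0, which held 403 of 446 TG and 1986 of 2232 WT NKT cells, the log2 ratio of Bcl3 was 1.17. Nfkbid gave -0.32 (-0.43 to -0.22) in mature B cells, where its level was highest, and 0.69 (0.20 to 1.21) in CD8aa T cells. As a sum the inhibitors and cofactors lay lower in TG, but gene by gene the nuclear cofactors were less uniform than Tnfaip3. Summed over the 5 genes of this role, the log2 ratio was -0.86 (-0.92 to -0.79) in CD8ab T cells, -0.68 (-0.80 to -0.57) in immature B cells, -0.65 (-0.72 to -0.59) in NKT cells and -0.14 (-0.20 to -0.08) in the Mono class. The sum of CD8ab T cells was smaller in size in each of the 4 clusters, -0.31 (-0.42 to -0.21) in cluster 4, -0.65 (-0.85 to -0.44) in cluster 12, -0.72 (-0.86 to -0.58) in cluster 7 and -0.80 (-0.92 to -0.67) in cluster 13.

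The 250 bases before the transcription start of Nfkbia and Tnfaip3 are shown because these inhibitors of NF-kB are themselves known NF-kB targets. They are from RefSeq on GRCm38.p6, the assembly also called mm10 to which the reads were aligned, written 5′ to 3′ on the strand of the gene with matches to a motif in capitals. Nfkbia lies on the minus strand and its stretch is chr12:55492648-55492897, with a match to the NF-kB (kB) consensus 29 to 20 bases before the start. Tnfaip3 lies on the minus strand and its stretch is chr10:19015411-19015660, with kB matches 125 to 116 and 12 to 3 bases before the start and an AP-1 motif, TGANTCA on either strand, 136 to 130 bases before it. Another start of Tnfaip3 in the table has no match.
Nfkbia: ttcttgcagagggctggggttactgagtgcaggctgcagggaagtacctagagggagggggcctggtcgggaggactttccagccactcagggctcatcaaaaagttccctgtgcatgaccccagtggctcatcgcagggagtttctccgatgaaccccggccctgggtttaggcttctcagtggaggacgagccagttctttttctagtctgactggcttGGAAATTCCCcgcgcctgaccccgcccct
Tnfaip3: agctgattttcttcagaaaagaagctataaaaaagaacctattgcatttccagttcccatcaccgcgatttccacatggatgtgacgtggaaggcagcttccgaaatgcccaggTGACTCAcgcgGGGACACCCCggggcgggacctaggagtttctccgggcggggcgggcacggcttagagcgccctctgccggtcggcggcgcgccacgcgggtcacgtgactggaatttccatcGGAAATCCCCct

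A promoter was found in the table for 28 of 35 members. The kB consensus, searched on both strands, was present in at least 1 promoter of 9 of the 28 (Fos, Fosb, Ier3, Nfkb2, Nfkbia, Nfkbid, Rel, Tnfaip3 and Tnfrsf9), 32.1% against 8.23% of all 27025 genes with a promoter. The AP-1 motif TGANTCA was in those of Nfkb2, Tnfaip3 and Tnfrsf9, 10.7% against 7.82%. Genes with more listed starts have more chances of a match, and the members were chosen as early genes, many of which are known for such sites. A match is a run of letters and says nothing of binding in these cells, and the genes with the kB consensus went from Tnfaip3, lower in TG in all 9 classes, to Nfkb2, higher in 6.

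The NF-kB subunits did not share a direction. Rel was lower in TG in 7 of 9 classes, with 168 CPM in TG against 222 in WT in mature B cells, a log2 ratio of -0.41 (-0.57 to -0.25). Nfkb1 was lower in 8 of 9, with -0.69 (-0.96 to -0.42) in immature B cells and -0.64 (-0.88 to -0.41) in the NK class (0.04 in cluster 3 and -0.93 in cluster 8), but it was at 225 CPM in TG against 179 in WT in CD4 T cells, 0.33 (0.07 to 0.59), a value not seen in cluster 9 (-0.04 (-0.43 to 0.34)). Nfkb2, the p100 precursor of the alternative pathway, was at 40.8 CPM in TG against 20 in WT in CD8aa T cells, 1.03 (0.08 to 2.11), from 54 and 11 UMIs. In CD4 T cells it was at 42.6 CPM in TG against 21.6 in WT, 0.98 (0.30 to 1.66), with 1.24 (-0.27 to 2.58) in cluster 6 and 0.20 (-0.90 to 1.28) in cluster 9. Relb, the partner of p52, gave 0.90 (-0.11 to 2.06) in CD8aa T cells, from 45 and 10 UMIs. The intervals lay below 0 in 4 of 9 classes for both Rel and Nfkb1, with 1 above 0 for Nfkb1, and in 0 for Nfkb2 and Relb, with 3 and 1 above 0. Whether the pairs of subunits differ from each other was not tested.

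Of the NF-kB targets, Gadd45b, a stress sensor that acts on MAP kinases and DNA demethylation, lay below 0 in all 9 classes, from -0.38 in CD8aa T cells to -0.98 in immature B cells, where it was at 89.2 CPM in TG against 176 in WT. Ier3 was at 85.0 CPM in TG against 238 in WT in the Macro class, -1.49 (-1.94 to -1.06), with 44.2% of its TG UMIs in 3 cells, while in the Mono class it was at 936 CPM in TG against 939.5 in WT, -0.01 (-0.18 to 0.17). Icam1, the adhesion molecule that binds LFA-1, was at 80.5 CPM in TG against 41.1 in WT in CD4 T cells, 0.97 (0.48 to 1.45). It was -0.19 (-0.92 to 0.52) in cluster 9 and 1.52 (0.09 to 2.83) in cluster 6, from 8 and 16 UMIs, and 33 of its 68 TG UMIs lay in the 48 TG cells outside both. In CD8ab T cells the same gene gave -0.27 (-0.48 to -0.07), and -0.90 to 0.41 over the 4 clusters. Tnfaip8, a regulator of apoptosis, was lower in TG in 7 of 9 classes by its point value, with -0.50 (-0.71 to -0.29) in mature B cells and 0.26 (-0.10 to 0.62) in CD4 T cells. Birc3, an inhibitor of apoptosis, had 1 interval without 0, -0.56 (-1.04 to -0.09) in the NK class.

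Tnfrsf9, the costimulatory receptor CD137, differed most in CD4 T cells and lay on both sides of 0 in other classes. In CD4 T cells it was at 82.9 CPM in TG against 7.19 in WT, a log2 ratio of 3.53 (2.69 to 4.47), from 70 UMIs in 238 TG cells and 14 UMIs in 734 WT cells. Of the TG UMIs 41.4% lay in 3 cells, and 65 of them in the 48 TG cells outside clusters 6 and 9, where no cluster had 50 cells of both genotypes. Within clusters 6 and 9 the TG cells held 1 and 4 UMIs, so the difference lies in a small subset of the class. The antibody against CD137, counted in the same cells, took 3773 per 1000000 antibody counts in TG and 3664 in WT CD4 T cells. TG pDC, with 0 UMIs of the transcript, took 4196, so the antibody is not shown above its background in CD4 T cells. In mature B cells Tnfrsf9 was at 3.27 CPM in TG against 7.24 in WT, -1.14 (-2.31 to -0.08) from 11 and 26 UMIs. In cluster 1, which held 1028 of the 1068 TG mature B cells, it was counted 7 and 7 times, -0.15 (-1.89 to 1.59), so the 2-fold difference was not seen there. The other 19 WT UMIs lay in cluster 17, which carried Cd3e at 609 CPM. In the NK class Tnfrsf9 was at 57.4 CPM in TG against 89.7 in WT, -0.64 (-1.0 to -0.29), with -0.45 (-1.02 to 0.10) in cluster 3 and 0.42 (-0.06 to 0.90) in cluster 8. NKT cells had it higher in TG, 30.6 CPM in TG against 20 in WT and 0.61 (0.13 to 1.08), with 1.35 (0.66 to 2.02) in cluster 0 from 33 and 48 UMIs. The class value of CD8ab T cells was -0.05 (-0.50 to 0.41), but that of its cluster 7 was 1.16 (0.38 to 2.02) from 92 and 16 UMIs. Cd83 was counted 23 times in TG and 12 times in WT CD4 T cells, but 95.7% of the TG UMIs lay in 3 cells, so its 2-fold call there rests on those cells. In the NK class it was counted 5 times in TG and 24 times in WT, with 62.5% of the WT UMIs in 3 cells. In mature B cells, where its level was highest, the ratio of Cd83 was 0.44 (0.23 to 0.64).

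The AP-1 factors split by gene and class. Junb differed little by class, with log2 ratios from -0.12 in CD4 T cells to 0.11 in the Macro class, and 2589 CPM in TG against 2639 in WT in NKT cells. Within clusters it was more often higher in TG, with the interval above 0 in 8 of 14 clusters and below 0 in 2. The class value of CD8ab T cells, -0.04 (-0.09 to 0.01), lay near 0, while all 4 of its clusters lay higher in TG with intervals above 0, from 0.13 (0.02 to 0.24) in cluster 13 to 0.61 (0.42 to 0.79) in cluster 12. CD4 T cells gave 0.22 (0.08 to 0.35) in cluster 6 and -0.18 (-0.30 to -0.07) in cluster 9. Jun, its relative, was at 2000.3 CPM in TG against 1298 in WT in mature B cells, 0.62 (0.57 to 0.68), and at 988 CPM in TG against 1621 in WT in the NK class, -0.71 (-0.80 to -0.63). It was also higher in TG in immature B cells, 0.32 (0.22 to 0.42), and in the Macro class, 0.41 (0.32 to 0.50), and lower in the other 6 classes. Over the 14 clusters its interval lay above 0 in 6 and below 0 in 7, and the side turned within classes. In CD8ab T cells Jun was 0.37 (0.26 to 0.47) in cluster 4 and 0.25 (0.12 to 0.39) in cluster 13 but -0.58 (-0.74 to -0.42) in cluster 7, and in CD4 T cells 0.26 (0.09 to 0.43) in cluster 6 and -0.72 (-0.91 to -0.53) in cluster 9. In the NK class it was -0.51 (-0.62 to -0.40) in cluster 3, the cluster with the larger difference of Cd3e, and 0.10 (-0.04 to 0.24) in cluster 8, so the lower NK value was not seen in cluster 8. Cluster 11, which had under 50 WT cells, held Jun at 428 CPM in TG. Summed over the AP-1 and ATF factors, mature B cells gave 0.23 (0.20 to 0.25), the one class with an interval above 0 for this role, against -0.24 (-0.27 to -0.20) in CD8ab T cells and -0.34 (-0.38 to -0.30) in the NK class. The lower sum of CD8ab T cells was seen in cluster 7 alone of its 4 clusters, -0.38 (-0.46 to -0.30), and the side turned in cluster 4, 0.19 (0.13 to 0.25), cluster 12, 0.25 (0.11 to 0.38), and cluster 13, 0.15 (0.08 to 0.22). In the NK class the sum was -0.18 (-0.25 to -0.12) in cluster 3 and -0.07 (-0.14 to 0.01) in cluster 8. CD4 T cells gave 0.23 (0.13 to 0.32) in cluster 6 and -0.31 (-0.39 to -0.23) in cluster 9.

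Fos was at 447 CPM in TG against 763 in WT in CD8ab T cells, -0.77 (-0.85 to -0.69) and from -1.44 to -0.02 over its 4 clusters, at 5055 CPM in TG against 7971 in WT in the Mono class, -0.66 (-0.73 to -0.59), and at 2003 CPM in TG against 3390.1 in WT in the Macro class, -0.76 (-0.85 to -0.67), with -0.35 (-0.47 to -0.23) in its cluster 15. CD8aa T cells had 1031 CPM in TG against 887 in WT, 0.22 (0.07 to 0.37), and mature B cells -0.01 (-0.07 to 0.06). Fosb, a further Fos protein, was at 807 CPM in TG against 1682 in WT in the Mono class, -1.06 (-1.22 to -0.90), and at 572 CPM in TG against 1298 in WT in the Macro class, -1.18 (-1.35 to -1.02). Both Fos genes were thus lower in TG in the myeloid classes. In mature B cells, however, Fosb gave 0.33 (0.25 to 0.41) and in CD4 T cells 0.37 (0.17 to 0.57), which divided into 1.27 (0.86 to 1.67) in cluster 6 and -0.11 (-0.36 to 0.15) in cluster 9. Atf3 passed the minimum count in 7 classes and was below 0 in 3 of them, with -0.57 (-0.87 to -0.28) in the Macro class and 0.30 (0.05 to 0.55) in immature B cells.

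Among the other early transcription factors, Egr1 in the Mono class was at 2185 CPM in TG against 4770.2 in WT, a log2 ratio of -1.13 (95% interval -1.22 to -1.03), and in the Macro class at 1024 CPM in TG against 1889.8 in WT, -0.88 (-1.01 to -0.76), but -0.27 (-0.41 to -0.12) in cluster 15 of that class. Egr1 lay below 0 in all 9 classes, yet the B cell classes hardly differed, with -0.11 (-0.20 to -0.02) in mature and -0.01 (-0.25 to 0.23) in immature B cells. Klf6, a zinc finger factor, was lower in 8 of 9 classes, most in CD8ab T cells at -0.51 (-0.60 to -0.42) and from -0.52 to -0.18 over the clusters. Ier2, a small early response gene, ranged from -0.37 in CD8ab T cells, where the clusters ran from -0.59 to 0.34, to 0.02 in the Macro class.

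Nr4a1 and Nr4a2 encode the orphan nuclear receptors Nur77 and Nurr1, which antigen receptor signals induce in lymphocytes. Nr4a1 was at 112 CPM in TG against 241 in WT in NKT cells, -1.10 (-1.32 to -0.89), at 285 CPM in TG against 541 in WT in mature B cells, -0.92 (-1.04 to -0.81), and at 108 CPM in TG against 187 in WT in CD8ab T cells, -0.79 (-0.96 to -0.62) and from -1.09 to -0.12 over the clusters. It was lower in TG in all 7 lymphocyte classes and in the Mono class, and at 776 CPM in TG against 749 in WT in the Macro class, 0.05 (-0.11 to 0.21). Nr4a2 was at 24.9 CPM in TG against 84.2 in WT in CD8ab T cells, -1.76 (-2.07 to -1.45), and at 11.3 CPM in TG against 39.0 in WT in mature B cells, -1.78 (-2.34 to -1.26). In cluster 1 of mature B cells the log2 ratio of Nr4a2 was -1.58, and 48 of its WT UMIs lay outside that cluster. In NKT cells its levels were 6.23 and 16.4 CPM, -1.39 (-2.44 to -0.50), from 11 TG UMIs. In immature B cells they were 5.73 and 16.7 CPM, -1.54 (-3.06 to -0.20). In the Macro class Nr4a2 was at 22.9 CPM in TG against 92.2 in WT, -2.01 (-2.92 to -1.21). In CD8ab T cells 136 of the 258 WT UMIs came from the 76 cells of cluster 23, where Nr4a2 stood at 476 CPM and which had under 50 TG cells. Within the clusters that both genotypes fill, the log2 ratio of Nr4a2 was -0.02 (-0.94 to 0.87) in cluster 4, -0.88 (-1.59 to -0.15) in cluster 7, -0.74 (-1.72 to 0.30) in cluster 12 and -2.04 (-2.89 to -1.23) in cluster 13.

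**Figure D4:**
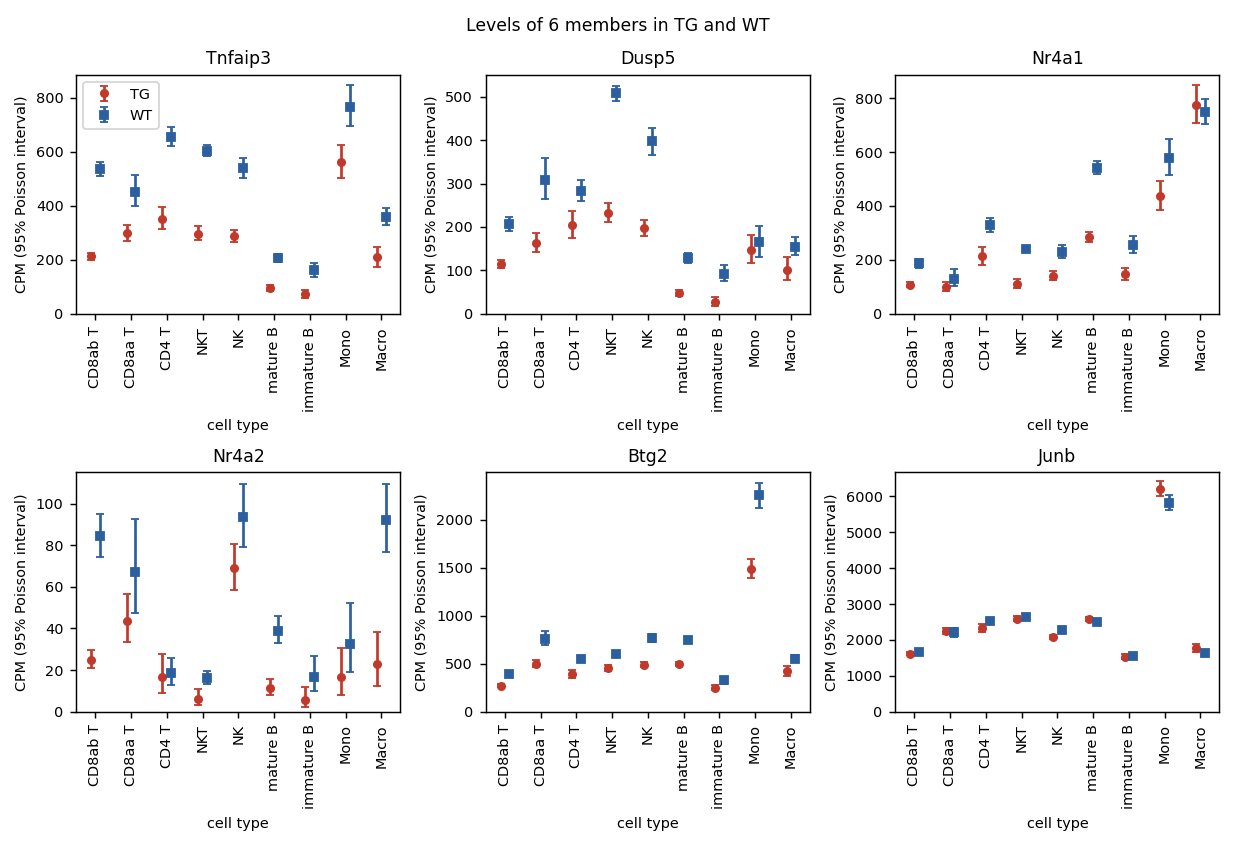
CPM (vertical axis) of Tnfaip3, Dusp5, Nr4a1, Nr4a2, Btg2 and Junb in the 9 classes (horizontal axis) for TG (circles) and WT (squares), with 95% Poisson intervals of the counts. TG lies below WT in every class for Tnfaip3, Dusp5, Nr4a2 and Btg2, Nr4a1 lies below in the lymphocyte classes and is nearly equal in the Macro class, and the Junb points nearly coincide.

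Among the feedback genes Dusp5 was lower in TG in all 9 classes and was the one with 2-fold calls. It was at 232 CPM in TG against 508 in WT in NKT cells, -1.13 (-1.28 to -0.98), at 197 CPM in TG against 397 in WT in the NK class, -1.01 (-1.19 to -0.83) (-0.83 and -0.59 in clusters 3 and 8, both under 2-fold), and at 47.3 CPM in TG against 128 in WT in mature B cells, -1.44 (-1.71 to -1.17). In cluster 1 of mature B cells the log2 ratio of Dusp5 was -1.15, and 187 of its WT UMIs lay outside that cluster. In immature B cells it was at 27.0 CPM in TG against 92.4 in WT, -1.77 (-2.39 to -1.19), and in the Mono class the interval held 0, -0.16 (-0.61 to 0.28). All 7 lymphocyte classes and the Macro class had intervals below 0 for Dusp5. Zfp36 lay below 0 in every class, with -0.66 (-0.74 to -0.58) in the Macro class, -0.52 (-0.59 to -0.45) in CD8ab T cells (-0.85 to -0.04 over the clusters) and -0.05 (-0.10 to 0.01) in the Mono class. Dusp2 was below 0 in every class too, with 501 CPM in TG against 846 in WT in CD8ab T cells, -0.76 (-0.84 to -0.68), where cluster 12 stood apart at 0.28 (0.02 to 0.55). Dusp1 was lower in 7 classes, -0.43 (-0.51 to -0.36) in NKT cells, and higher in immature B cells, 0.22 (0.02 to 0.43), and CD4 T cells, 0.19 (0.04 to 0.34). The value of CD4 T cells was not seen in either cluster that both genotypes fill, -0.01 (-0.36 to 0.33) in cluster 6 and -0.14 (-0.37 to 0.08) in cluster 9, which held 190 of 238 TG and 669 of 734 WT cells. Dusp1 in CD8ab T cells was -0.32 (-0.42 to -0.22), and -0.65 to 0.58 over the clusters. Ppp1r15a, which encodes the stress-induced phosphatase subunit GADD34, was lower in 8 of 9 classes, with -0.76 (-0.98 to -0.54) in the Mono class.

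In the mixed group Btg2, an antiproliferative gene, varied little, with log2 ratios from -0.64 in the NK class (492 and 766 CPM) to -0.38 in the Macro class (425 and 553 CPM). Its relative Btg1, an antiproliferative gene of resting lymphocytes, was at 482 CPM in TG against 850.2 in WT in CD8ab T cells, -0.82 (-0.90 to -0.74) and from -0.63 to -0.14 over the clusters, and at 2058 CPM in TG against 1988 in WT in the Mono class, 0.05 (-0.07 to 0.17). Pnrc1, a nuclear receptor coactivator, was below 0 in 8 classes, with -0.68 (-0.79 to -0.57) in CD8ab T cells (-0.63 to -0.08 over the clusters) and 0.02 (-0.25 to 0.28) in the Macro class. Sgk1, a kinase regulated by salt and serum, was at 40.2 CPM in TG against 89.9 in WT in CD4 T cells, -1.16 (-1.73 to -0.62) and from -1.27 to -0.62 over clusters 6 and 9. In the NK class it was at 83.7 CPM in TG against 59.8 in WT, 0.49 (0.12 to 0.85), with 1.33 (0.36 to 2.39) in cluster 3 and -0.09 (-0.63 to 0.43) in cluster 8.

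The promoters of Dusp5, Zfp36, Btg2 and Dusp1 are shown as examples that hold a CArG box or a cAMP response element, with that of Junb, whose class ratios lay near 0. They come from the same RefSeq table, 250 bases on the strand of the gene. Dusp5 (chr19:53528895-53529144, plus strand) has CArG boxes, the binding motif of serum response factor, 82 to 73 and 72 to 63 bases before its start, and Zfp36 (chr7:28379229-28379478, minus strand) has a CArG box 58 to 49 bases before it. Btg2 (chr1:134079156-134079405, minus strand) and Dusp1 (chr17:26508473-26508722, minus strand) have the full cAMP response element TGACGTCA, 166 to 159 and 143 to 136 bases before the start. Junb (chr8:84978749-84978998, minus strand) has no match to the 4 motifs searched.
Dusp5: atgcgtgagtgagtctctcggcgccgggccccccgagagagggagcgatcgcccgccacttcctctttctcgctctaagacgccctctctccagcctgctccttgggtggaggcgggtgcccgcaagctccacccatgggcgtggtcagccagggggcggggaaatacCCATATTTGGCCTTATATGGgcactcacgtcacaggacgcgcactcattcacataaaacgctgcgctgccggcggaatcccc
Zfp36: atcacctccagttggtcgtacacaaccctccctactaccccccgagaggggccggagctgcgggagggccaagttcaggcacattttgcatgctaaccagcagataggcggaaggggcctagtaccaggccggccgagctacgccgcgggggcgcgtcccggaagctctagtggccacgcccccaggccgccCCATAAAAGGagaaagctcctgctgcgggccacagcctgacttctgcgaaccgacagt
Btg2: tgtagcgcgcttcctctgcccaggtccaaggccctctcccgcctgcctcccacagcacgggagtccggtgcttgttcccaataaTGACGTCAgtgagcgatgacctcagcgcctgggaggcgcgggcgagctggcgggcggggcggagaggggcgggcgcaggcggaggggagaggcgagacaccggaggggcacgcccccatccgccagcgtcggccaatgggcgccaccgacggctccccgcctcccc
Dusp1: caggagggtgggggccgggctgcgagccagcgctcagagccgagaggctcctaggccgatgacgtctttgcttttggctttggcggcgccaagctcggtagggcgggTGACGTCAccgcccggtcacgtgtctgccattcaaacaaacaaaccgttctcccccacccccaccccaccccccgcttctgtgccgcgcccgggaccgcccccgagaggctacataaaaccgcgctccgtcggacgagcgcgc
Junb: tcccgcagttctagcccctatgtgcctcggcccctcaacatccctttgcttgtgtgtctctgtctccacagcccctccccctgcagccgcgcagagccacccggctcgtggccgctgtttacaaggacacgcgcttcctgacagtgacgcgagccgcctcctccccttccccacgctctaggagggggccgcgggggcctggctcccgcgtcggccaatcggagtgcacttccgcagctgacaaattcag

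A CArG box was found for 2 of the 28 members with a promoter, 7.14% against 1.62% of all genes, and TGACGTCA for 4 (Btg2, Dusp1, Nfkbid and Ppp1r15a), 14.3% against 1.77%. The 4 genes with TGACGTCA include Btg2, lower in TG in all 9 classes, and Dusp1, which was higher in 2.

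Other genes of the pathway were taken as whole lists, which were also chosen with earlier results of these data known. Of 30 other early and NF-kB response genes, 4 of 30 compared were at least 2-fold lower in TG CD8ab T cells and 0 higher, 13.3% and 0% against 3.05% and 4.15% of all genes compared, and their median log2 ratio was -0.39. In CD4 T cells 4 of 29 were higher (Fosl2, Ccl3, Ccl4 and Cxcl2) and 2 lower (Maff and Myc), 13.8% and 6.90% against 5.41% and 3.28% of all genes. In immature B cells 2 of 28 were higher (Ccl3 and Ccl4) and 2 lower (Rgs2 and Bcl2a1b), 7.14% for each against 2.96% and 3.07%. Over the 9 classes 11 values of this list were at least 2-fold higher and 32 lower, of 257 compared, 4.28% and 12.5% against 4.06% and 3.46% of all genes. The chemokine gene Ccl4 gave 1.65 (1.13 to 2.18) in CD4 T cells and 1.38 (1.06 to 1.69) in NKT cells. Over the 9 classes the medians of this list ran from -0.39 in the NK class to 0.10 in CD4 T cells, and lay below 0 in 8. Maff, a small MAF factor, gave -1.58 (-2.09 to -1.09) in CD8ab T cells, -1.86 (-2.33 to -1.43) in NKT cells and -2.11 (-2.81 to -1.46) in the NK class, and was at least 2-fold lower in 6 classes. Rgs2, a brake on G protein signals, was lower in all 9 classes and 2-fold so in 4. Of the 24 genes of the NF-kB signalling core (receptor adaptors, kinases and ubiquitin ligases) all 24 were compared in CD8ab T cells and 0 differed by 2-fold, with medians from -0.29 in the NK class to 0.30 in the Macro class. Over the 9 classes 5 of 212 values of the signalling core were at least 2-fold higher and 1 lower, 2.36% and 0.47% against 4.06% and 3.46% of all genes. The list of 14 receptors and ligands that act on NF-kB had medians from -0.27 in immature B cells to 0.39 in NKT cells, over 6 to 11 genes compared. Of its 73 values 5 were at least 2-fold higher and 4 lower, 6.85% and 5.48% against the same shares of all genes. The medians of the genes that carry the signal thus lay on both sides of 0.

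The heat shock genes, which encode chaperones, lay on both sides of 0. Their share of UMIs was higher in TG in 4 of the 9 classes and lower in 5. The medians of the 10 genes ran from -0.37 in the Mono class to 0.24 in immature B cells. Of 90 values 0 were at least 2-fold lower in TG and 9 higher, 0% and 10% against 3.46% and 4.06% of all genes. All 9 were of Hspa1a, in 3 classes, and Hspa1b, in 6, near copies that can share reads. No other heat shock gene was called. Hspa1b gave 2.46 (1.76 to 3.24) in immature B cells. Transcripts of the 3 neutrophil markers differed by genotype in lymphocytes, from 283 to 438 CPM over the 7 lymphocyte classes of TG and from 92.7 to 162 CPM over those of WT, and erythroid transcripts stood at 4364 CPM in WT CD8aa T cells against 0.755 in TG, and at 1523 against 1.31 CPM in the NK class. Their part in the differences of the members was not tested.

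Each pool also held cells that have no genotype name in the deposited annotation, 5379 in the first and 16829 in the second. They are set beside TG and WT here as a description of how far cell sets of 1 library differ. B and T cells were defined in all 4 sets in the same way, from transcripts. In T cells the members took 1.13% of UMIs in TG, 1.34% in the unnamed cells of the same library, 1.65% in WT and 1.25% in the unnamed cells of its library. In B cells the shares were 1.75%, 1.71%, 1.89% and 1.71%. The WT cells thus stood above the other 3 sets, and in T cells the 2 sets of the second pool differed by more than TG differed from the unnamed cells of the first pool. The T cell sets pool classes that the genotypes fill differently. Among the annotated cells TG had 1020 CD8ab T and 446 NKT cells, and WT had 819 and 2232. The part of this mix in the values of the T cell sets was not tested.

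Of the 35 members, 30 were lower in TG than in WT T cells, 85.7% against 48.1% of all genes with at least 20 UMIs over the 4 sets, and 22 in B cells, 62.9% against 52.3%. Between the unnamed sets 14 were lower in the first pool in T cells and 15 in B cells, 40% and 42.9% against 33.4% and 43.4% of all genes. Both sets of the first pool lay below both sets of the second for 9 members in T cells, 25.7% against 13.6% of all genes, and 11 in B cells, 31.4% against 17.8%. They lay above both for 1 and 4 members, 2.86% and 11.4% against 29.4% and 20.7%. Tnfaip3 in T cells was at 273 CPM in TG, 411 in the unnamed cells of the first pool, 596 in WT and 500.2 in the unnamed cells of the second pool. In B cells the same gene was at 100 CPM in TG, 196 in the unnamed cells of the first pool, 164 in WT and 153 in the unnamed cells of the second pool. Dusp5 in T cells was at 158 CPM in TG, 187 in the unnamed cells of the first pool, 395 in WT and 216 in the unnamed cells of the second pool. For Dusp5 and Tnfaip3, TG was thus the lowest of the 4 sets in T cells, and WT the highest. NKT cells, the class with the highest Dusp5, numbered 446 in TG and 2232 in WT, and the part of this was not tested. Nr4a1 in T cells was at 128 CPM in TG, 178 in the unnamed cells of the first pool, 248 in WT and 187 in the unnamed cells of the second pool. Nr4a2 in T cells was at 31.9 CPM in TG, 83.8 in the unnamed cells of the first pool, 38.3 in WT and 148 in the unnamed cells of the second pool, so that for this gene TG and WT both lay below the unnamed cells. Btg2 in T cells was at 390.1 CPM in TG, 395 in the unnamed cells of the first pool, 565 in WT and 419 in the unnamed cells of the second pool. For Btg2 the unnamed cells of the second pool lay near the first pool and not near WT.

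**Figure D5:**
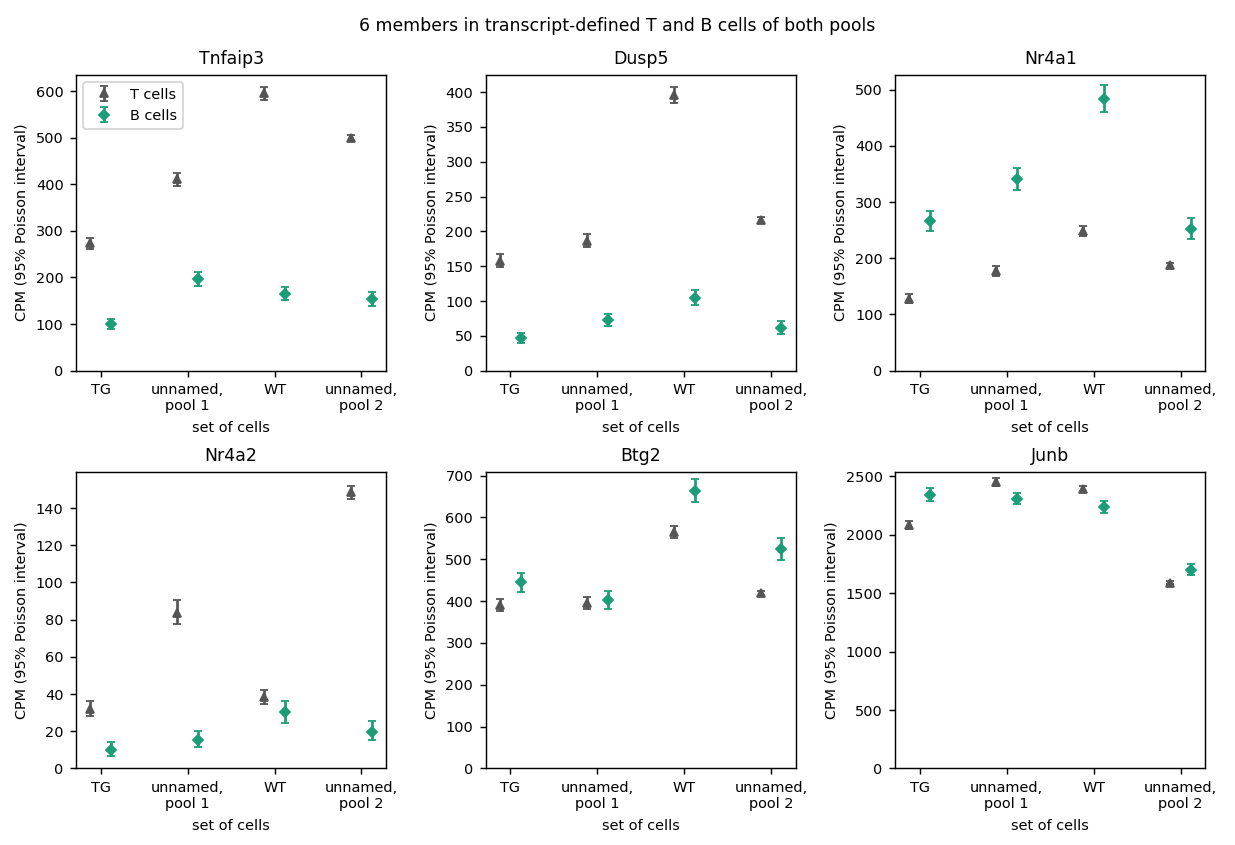
CPM (vertical axis) of 6 members in T cells (triangles) and B cells (diamonds) defined from transcripts, for TG, the unnamed cells of the first pool, WT and the unnamed cells of the second pool (horizontal axis), with 95% Poisson intervals. In T cells Tnfaip3 and Dusp5 are lowest in TG and highest in WT, and Nr4a2 is highest in the unnamed cells of the second pool.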

How the data were processed

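Liver CD45+ cells were captured with the BD Rhapsody system, which counts transcripts and antibody tags of single cells by UMI. The authors aligned reads to mm10 and deposited UMI counts of 13528 genes for 11929 annotated cells after a filter on cells that the sources used here do not give. A gene's deposited counts of all called cells of a pool were used for the unnamed cells. The authors also deposited normalised values, the natural log of 1 plus 10000 times a gene's share of the counts of the cell, and the mitochondrial percent, cluster and class of each cell, which were used as given. All 11929 cells were found in the library files, no member value differed between the tables, and 36 cell indices occurred in both genotypes.

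Counts of a gene were summed per class or cluster and genotype. CPM have exact Poisson intervals, ratios have exact conditional binomial intervals and shares have Clopper-Pearson intervals, all at 95%, covering counting error only. No test was made, since each genotype is 1 library. A 2-fold call needed at least 20 UMIs over both genotypes, and cell sets needed 50 cells. Members described first had at least 50 UMIs, a log2 ratio of 1 or more in size, an interval without 0 and 1 direction under every scaling. Any of the 35 members may be named, and other genes come from the lists or are the 10 that follow the member share most closely. The members and all lists were chosen with earlier results of these data known. B cells defined from transcripts had at least 2 UMIs over Cd79a, Cd79b and Ms4a1 and 0 over Cd3d, Cd3e and Cd3g, and T cells the converse, a definition chosen after seeing the data in place of an earlier one that is not reported here.

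Scrublet (in scanpy 1.11.5, with 5% doublets expected) marked doublets, which were 0.839% of TG and 3.31% of WT cells and were kept. Alternatives were TMM (edgeR 4.0.16, R 4.3.3), totals without ribosomal, mitochondrial and immunoglobulin genes, equal cell weight, thinning to 1000 UMIs, leaving out doublets, cells above the 90th percentile of mitochondrial percent or the 3 top cells, no minimum count, and single clusters. Ratio calculations were tested on simulated data. Python 3.11.15, numpy 2.4.6, scipy 1.17.1 and pandas 2.3.3 were used.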

Additional observations from a re-analysis of the deposited data

Results flagged for a closer look

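For 12 members the TG to WT log2 ratio lay above 0 in one class and below 0 in another, with both intervals free of 0. The share of all genes with such a pair of classes is not given here, so the count is not read as a trait of the members. These differences between classes were not tested, since each genotype is 1 library, and each pair shown holds the highest and the lowest value among such classes. The gap was 1.02 for Nfkb1 between CD4 T cells and immature B cells, 1.29 for Nfkbid between CD8aa T cells and the Macro class, and 1.24 for Icam1 between CD4 and CD8ab T cells. Both extremes of Cd83 rest on few UMIs in few cells, with a gap of 4.91 between CD4 T cells and the NK class. For Tnfrsf9 the gap was 4.67 between CD4 T cells and mature B cells, where few UMIs were counted as well. Among the AP-1 genes it was 1.34 for Jun between mature B cells and the NK class, 0.23 for Junb between the Macro class and CD4 T cells, 0.99 for Fos between CD8aa and CD8ab T cells, 1.56 for Fosb between CD4 T cells and the Macro class, and 0.87 for Atf3 between immature B cells and the Macro class. Dusp1 gave 0.65 between immature B cells and NKT cells, and Sgk1 gave 1.64 between the NK class and CD4 T cells. The lower value of Jun in the NK class was not seen in its cluster 8, 0.10 (-0.04 to 0.24), while mature B cells gave 0.71 (0.66 to 0.77) in cluster 1. The higher values of Nfkb1, Icam1 and Fosb in CD4 T cells were not seen in cluster 9, the higher value of Sgk1 in the NK class not in cluster 8, and the lower value of Tnfrsf9 in mature B cells not in cluster 1. Junb lay on the other side, higher in TG, in cluster 6 of CD4 T cells.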

How the results depend on the processing

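Each genotype was 1 library, so leaving out a replicate was not possible. No paired analysis was possible because each group holds 1 sample. All 71 alternative values of the summed members stayed below 0 in TG against WT. Of the 447 alternative values computed, for that sum, the 2-fold counts, the member shares and the members described first, 0 changed direction. Counts and shares cannot fall below 0, so only the ratios could have done so. The balance of the 2-fold counts did turn in CD4 T cells. There 2 members were higher and 1 lower, but 0 and 4 in cluster 9 alone. Of the 305 pairs of member and class, 20 changed side of 0 with TMM and 5 with the reduced totals, and the sides that turned within clusters stand in the report. The summed ratio is given here where it moved beyond its counting interval. With TMM scaling it was -0.50 in CD8ab T cells, -0.43 in CD4 T cells, -0.41 in NKT cells, -0.35 in the NK class, -0.0509 in mature B cells, -0.18 in the Mono class and -0.46 in the Macro class. With the reduced totals it was -0.55 in CD8ab T cells, -0.40 in CD4 T cells and -0.0696 in mature B cells. With thinning to 1000 UMIs it was -0.46 in CD8ab T cells, -0.25 in CD8aa T cells, -0.21 in CD4 T cells, -0.32 in NKT cells, -0.35 in the NK class, -0.35 in immature B cells and -0.27 in the Macro class. With the same cluster mix it was -0.19 in CD8ab T cells, -0.21 in CD4 T cells, -0.24 in the NK class and -0.21 in the Macro class. This setting leaves out cells outside the clusters compared, and the Macro class had only 1 such cluster. With equal cell weight it was -0.20 in CD4 T cells, -0.32 in immature B cells and -0.29 in the Macro class. Without cells of high mitochondrial percent it was -0.17 in immature B cells. Without doublets it was -0.30 in the Mono class. With T cells defined from transcripts it was -0.54 in all T classes. With the named classes it was -0.59 in all T classes. Both values pool classes that the genotypes fill differently. The size thus moved with each of these settings, by over 1.5 times for CD8ab T cells, the NK class and the Macro class with the same cluster mix, mature B cells with TMM, immature B cells with thinning or equal cell weight, and CD4 T cells with equal cell weight. TMM moved every log2 ratio of CD4 T cells by -0.12 and of the Macro class by -0.10, and those of other classes by less than 0.1.

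Counts of members at 2-fold are small and moved by over 1.5 times in places. The share of members and then that of all genes called stand in parentheses. In cluster 4 alone the counts were 1 lower in CD8ab T cells (3.12%, 4.43%). In cluster 7 alone the counts were 1 higher in CD8ab T cells (2.94%, 4.85%) and 4 lower in CD8ab T cells (11.8%, 3.22%). In cluster 12 alone the counts were 0 lower in CD8ab T cells (0%, 3.85%). With thinning to 1000 UMIs the counts were 2 higher in CD8aa T cells (6.25%, 12.3%), 4 higher in CD4 T cells (11.8%, 9.69%), 2 lower in NKT cells (5.88%, 7.09%), 2 higher in immature B cells (5.88%, 13.7%), 8 lower in immature B cells (23.5%, 12.2%), 2 higher in the Macro class (5.88%, 14.1%) and 5 lower in the Macro class (14.7%, 17.3%). Without the 3 top cells of a gene the counts were 2 higher in CD8aa T cells (6.25%, 14%), 1 lower in CD8aa T cells (3.12%, 2.19%), 1 higher in CD4 T cells (2.94%, 4.17%), 4 lower in CD4 T cells (11.8%, 9.55%) and 5 lower in the Macro class (14.7%, 13.4%). With no minimum count the counts were 1 lower in CD8aa T cells (2.86%, 9.39%) and 1 higher in immature B cells (2.86%, 12%). With equal cell weight the counts were 4 higher in CD4 T cells (11.8%, 5.79%) and 5 lower in immature B cells (14.7%, 3.66%). Without doublets the counts were 4 higher in CD4 T cells (11.8%, 5.74%). With TMM scaling the counts were 2 lower in CD4 T cells (5.88%, 4.26%), 1 lower in the NK class (2.86%, 3.81%) and 1 lower in the Mono class (3.03%, 4.45%). In cluster 6 alone the counts were 5 higher in CD4 T cells (17.2%, 5.69%) and 0 lower in CD4 T cells (0%, 8.60%). In cluster 9 alone the counts were 0 higher in CD4 T cells (0%, 3.70%) and 4 lower in CD4 T cells (12.5%, 4.41%). In cluster 0 alone the counts were 2 higher in NKT cells (5.88%, 3.93%). Without cells of high mitochondrial percent the counts were 1 lower in the NK class (2.86%, 4.30%). In cluster 3 alone the counts were 1 higher in the NK class (3.12%, 4.55%) and 1 lower in the NK class (3.12%, 4.40%). In cluster 1 alone the counts were 2 lower in mature B cells (5.88%, 1.58%). The log2 ratio of the member share of the Mono class over CD8ab T cells was 2.50 in TG and 2.28 in WT. It was 2.44 and 2.19 with equal cell weight, and 2.57 and 2.38 without doublets. Of 140 alternative values for single members described first, 6 moved beyond their interval and none changed direction. Under the scalings this was fixed in advance, since these members were chosen for 1 direction under them. For genes with few UMIs in a class the counts, and above them the spread between animals, which is not measured here, limit what can be read.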

Other observations

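In single CD8ab T, NKT and mature B cells of either genotype the median Pearson r of the deposited normalised values over all 595 pairs of members was 0.0255 to 0.0420, in sparse counts that share the depth of a cell. The AP-1 factors Fos and Fosb gave 0.23 to 0.47 over the 6 sets of cells, Jun and Fos 0.14 to 0.46, and the feedback genes Nfkbia and Zfp36 0.17 to 0.37. For Fos with Fosb and for Jun with Fos the value was highest in TG CD8ab T cells. That class pools clusters of unlike AP-1 level, such as cluster 7 with a TG sum of 1487 CPM and cluster 4 with 5727 CPM. The part of this mix in the correlations was not tested.

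Over 39 profiles of a cluster and genotype with at least 50 cells, the genes outside the members whose level followed the member share most closely were Il1b (r = 0.89), Ftl1 (r = 0.89), Mcl1 (r = 0.88), Nlrp3 (r = 0.88), and then Ptgs2, Csf3r, Clec4d, Ftl1.ps1, Bc1 and Csnk1e. Il1b encodes interleukin-1β, and Nlrp3 a sensor of the inflammasome. The profiles share 2 libraries, and the Mono cluster, with by far the highest member share, weighs heavily in these values.

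Of the 49 antibodies counted in the same cells, 2 bind products of early activation genes, CD137 (Tnfrsf9) and CD69. Their counts are given as counts, since they were not shown to stand above the background of unbound antibody. In the Mono class CD69 took 1365 per 1000000 antibody counts in TG and 11017 in WT, and its transcript was counted 47 and 50 times, while CD137 took 7196 and 21744 with 1 and 2 UMIs of its transcript. The share of CD69 was lower in TG in all 13 named classes and that of CD137 in 10. Of the other 47 antibodies 1 was lower in TG in all 13 and 22 in at least 10, with a median of 9 classes.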
